A study of Mus musculus with 2 samples.

Results

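Connexin genes were described in hearts of mouse embryos of strain B6NCrl at embryonic day 15.5, a stage at which the heart already has separate chambers. Members were taken by GENCODE M21 symbol, which was matched to the stable gene identifier of the deposited tables. They are Gja1, Gja3, Gja4, Gja5, Gjb2, Gjb6, Gjc1 and Gjd3, 8 genes out of 43346 Ensembl genes in both tables and out of 20 annotated connexin genes. All 8 were found. RNA-seq of total RNA, per the labels, was available as 2 libraries of 1 group of healthy embryos. Hearts of 78 embryos were pooled for replicate 1 and hearts of 62 others for replicate 2, both sexes together. There was no treatment, no mutant and no second stage, so the values describe 1 tissue at 1 age. A difference between the libraries is a difference between pools and has no replicate check. With 2 libraries the smallest p of an exact sign-flip test is 0.5, so none was run.

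Libraries were made from 10 ng of RNA longer than 200 nucleotides with spike-in RNA added. They held 41883313 estimated reads in replicate 1 and 39697992 in replicate 2, and 14120 and 14967 genes reached 1 TPM, the unit of level used throughout, which sets each transcript's reads per length against the library's sum. All 6 cardiomyocyte markers fixed for the check of the tissue reached 1 TPM in both libraries, beside 58.2% of protein-coding genes. Markers of blood precursors, smooth muscle, fibroblasts and epicardium were present too, with median log2 ratios of replicate 1 to replicate 2 of 0.06, -0.08, 0.16 and -0.02. Past 1.5-fold lower in replicate 1 among them were Klf1 of red cell precursors, with a log2 ratio of -1.93, and Myh11 and Notch3 of smooth muscle, with -1.24 and -0.66. These 3 were named after their values were seen.

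Connexins are the subunits of gap junctions, the channels through which neighbouring cells exchange ions and small molecules. In the heart these channels carry the electrical impulse from cell to cell, and the mix of connexins differs between working muscle, the conduction system and vessels. Proteins are usually named after their approximate mass. Gja1 encodes Cx43, the main connexin of working ventricular muscle. Gja5 encodes Cx40 of the atria, the ventricular conduction system and arterial endothelium. Gjc1 encodes Cx45, found early in heart development and later in nodal tissue. Gja4 encodes Cx37 of endothelium, Gja3 encodes Cx46, best known from the lens, and Gjd3 encodes the mouse connexin Cx30.2 of the nodes. Gjb2 and Gjb6 encode Cx26 and Cx30, which are best known from epithelia and the inner ear.

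A feature of the family that the choice by symbol did not use is the spacing of cysteines in the first extracellular loop, where partner channels dock. All 8 members encode 3 cysteines with the same spacing, as do 19 of the 20 annotated connexins, the exception being Gje1. The 36 bases that encode this stretch are shown because its cysteine spacing is the same in all 8 members. They were read from the GENCODE M21 transcripts, 5′ to 3′ on the coding strand, with the cysteine codons in capitals:
Gja1: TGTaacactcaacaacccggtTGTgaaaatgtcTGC
Gja3: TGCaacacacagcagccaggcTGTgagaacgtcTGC
Gja4: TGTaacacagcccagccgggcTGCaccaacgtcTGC
Gja5: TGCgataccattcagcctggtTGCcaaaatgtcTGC
Gjb2: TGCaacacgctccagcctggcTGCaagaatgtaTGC
Gjb6: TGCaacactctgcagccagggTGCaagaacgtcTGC
Gjc1: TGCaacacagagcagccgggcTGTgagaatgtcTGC
Gjd3: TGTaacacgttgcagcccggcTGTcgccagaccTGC
The Gja1 stretch lies at chr10:56387706-56387741 on the plus strand of mm10 and the Gja5 stretch at chr3:97050788-97050823, also on the plus strand. Of the 36 bases, 17 were the same in all 8 members. Against Gja1, Gja3 and Gjc1 shared 28 bases each, Gjb6 26, Gja5 and Gjb2 25 each, Gja4 24 and Gjd3 23.

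Sharing of reads between members through this likeness was looked for in the deposited tables. The authors' deposited posterior standard deviation of the gene count, which is above 0 where reads are shared between genes, was 0 for all 8 members in both libraries. The longest run of identical bases between the most read transcripts of any 2 members was 26 bases, between Gja1 and Gja4, followed by 21 bases between Gja3 and Gja5.

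Gja1 (ENSMUSG00000050953.9, chr10:56377330-56402513) was far above the other connexins, at 368 TPM in replicate 1 and 287 TPM in replicate 2 (35950 and 25025 reads). Its mean was 328 ± 57.4 TPM (SD, n = 2), and it ranked 317th in replicate 1 and 406th in replicate 2 among 21474 protein-coding genes. Gja5 (ENSMUSG00000057123.10) was next, at 64.8 and 84.1 TPM in replicates 1 and 2, a mean of 74.5 ± 13.7 TPM. On the TPM scale the higher library was thus replicate 1 for Gja1 and replicate 2 for Gja5.

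The next 3 connexins stood within a narrow span of levels. Gjc1 (ENSMUSG00000034520.10, chr11:102799579-102819700) had 38.6 TPM in replicate 1 and 39.9 TPM in replicate 2. Gja4 (ENSMUSG00000050234.7, chr4:127311421-127314039) had 25.5 and 31.4 TPM in the same order. Gja3 (ENSMUSG00000048582.6, chr14:57034460-57058100) had 22.4 and 20.1 TPM. The means were 39.2 ± 0.926 TPM for Gjc1, 28.4 ± 4.13 TPM for Gja4 and 21.3 ± 1.61 TPM for Gja3. Gja3, though best known from the lens, was read from 1055 reads in replicate 1 and 846 in replicate 2, and lay at percentiles 77.9 and 73.7 of protein-coding genes.

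Gjd3, Gjb2 and Gjb6 were the low members. Gjd3 (ENSMUSG00000047197.1, chr11:98982180-98983016) had 3.67 TPM from 88 reads in replicate 1 and 2.99 TPM from 64 reads in replicate 2. Its deposited model is a single exon of 837 bases with 834 coding bases before the stop codon and no untranslated part, so reads from outside the coding sequence cannot have been counted to it. Gjb2 (ENSMUSG00000046352.7, chr14:57098600-57104702) had 0.12 TPM from 9 reads in replicate 1 and 0.31 TPM from 21 reads in replicate 2. Gjb6 (ENSMUSG00000040055.8, chr14:57123303-57133611) had 0 reads in replicate 1 and 1 read in replicate 2. A count of 0, with a floor of 3 reads per library, allows up to 0.0957 TPM for Gjb6 in replicate 1 at the effective length listed for that library, and more for its shorter transcripts. The single read of replicate 2 is also under 3 reads.

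In all, 6 of the 8 members reached 1 TPM in each library, where 58.2% of protein-coding genes reached that level. The order of the mean levels was Gja1, Gja5, Gjc1, Gja4, Gja3, Gjd3, Gjb2 and Gjb6. In each of the 7 neighbouring pairs of that order, both libraries of the higher gene lay above both of the lower gene. Gja4 exceeded Gja3 by a TPM ratio of 1.14 in replicate 1 and 1.56 in replicate 2, and Gjc1 exceeded Gja4 by 1.51 and 1.27. The pair Gjb2 and Gjb6 rests on too few reads for its order to be read, and it turned round on the authors' posterior mean TPM. In 5 of the 8 genes, Gja1, Gja3, Gja4, Gja5 and Gjc1, the mean was above 10 TPM.

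**Figure D1:**
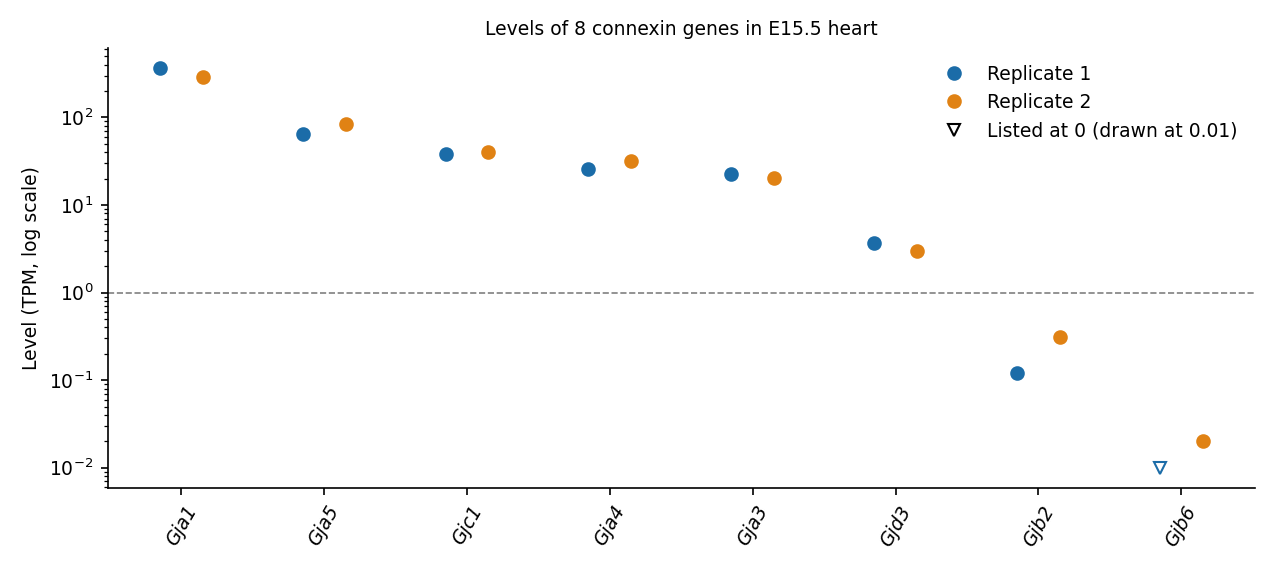
Level of each connexin gene in TPM (log axis) in replicate 1 (blue) and replicate 2 (orange), with the 8 genes in order of mean level, a dashed line at 1 TPM and an open triangle for a gene listed at 0. Gja1 stands at 368 and 287 TPM, 6 of the 8 are above the line in both libraries, and Gjb2 and Gjb6 are below it.

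The sum over the 8 genes was 523 TPM in replicate 1 and 466 TPM in replicate 2. Gja1 made up 70.4% of it in replicate 1 and 61.6% in replicate 2, a mean of 66.0% ± 6.19. Gja5 made up 12.4% and 18.1% in the same order, Gjc1 7.37% and 8.56%, Gja4 4.88% and 6.73%, and Gja3 4.28% and 4.32%. Gjd3 held 0.701% and 0.642%. Between the libraries, the share of Gja1 was thus larger in replicate 1, those of Gja5, Gja4 and Gjc1 were larger in replicate 2, and that of Gja3 differed by less than 1 percentage point. As a share of the reads of the 8 genes, without a correction for length, Gja1 held 76.8% (95% Wilson interval 76.4 to 77.2) in replicate 1 and 68.6% (68.1 to 69.1) in replicate 2. Intervals here cover counting error only and not the spread between pools. They also treat every read as independent. Reads carry no identifier, so several may come from 1 molecule, and the intervals are then too narrow.

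**Figure D2:**
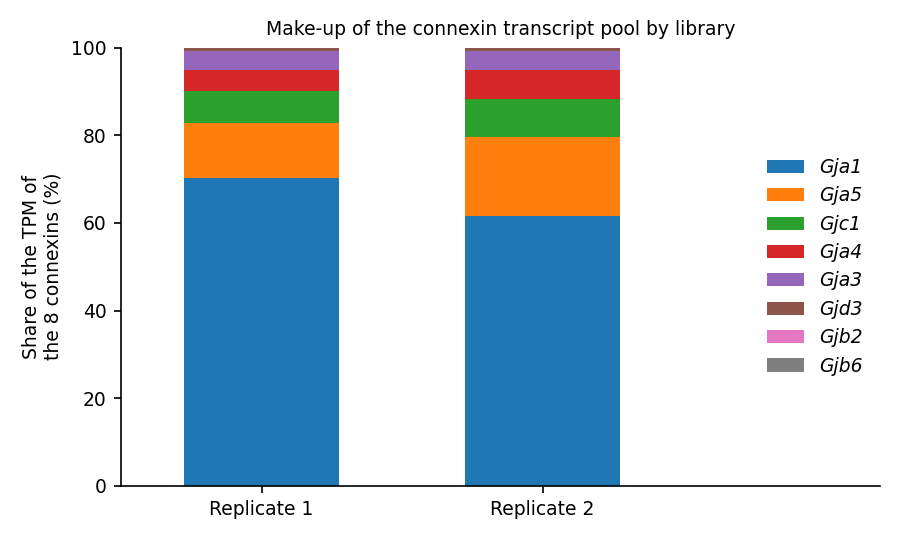
Share of each of the 8 connexin genes in their summed TPM (percent, stacked from 0 to 100), replicate 1 on the left and replicate 2 on the right. Gja1 fills 70.4% in replicate 1 and 61.6% in replicate 2, Gja5 12.4% and 18.1%, while Gjb2 and Gjb6 are too low to be visible.

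Inside a library, ratios between connexins do not depend on how the libraries are scaled. Gja1 exceeded Gja5 by a TPM ratio of 5.68 in replicate 1 and 3.41 in replicate 2. The log2 ratio of TPM + 0.1 was 2.14 ± 0.52 (SD, n = 2). The following factors were chosen after the values were seen. Taken on reads, the Gja1 to Gja5 ratio was 1.66-fold as high in replicate 1 as in replicate 2 (95% counting interval 1.60 to 1.72). The corresponding factor was 1.58 for Gja1 to Gja4 (1.46 to 1.70), 1.26 for Gja1 to Gjc1 (1.18 to 1.34) and 1.15 for Gja1 to Gja3 (1.05 to 1.26). For Gja1 to Gjd3 it was 1.04, with an interval of 0.757 to 1.44 that includes no change. The connexins known from endothelium, Gja5 and Gja4, had a TPM ratio to each other of 2.54 in replicate 1 and 2.68 in replicate 2. On reads that ratio differed by a factor of 0.951 between the libraries (0.876 to 1.03), which includes no change.

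Each gene was also compared between the libraries, as the ratio of reads in replicate 1 to reads in replicate 2 on the TMM scale, which sets the bulk of genes near equality. Members with at least 10 reads in both libraries were compared, which were 6 of the 8, Gjb2 and Gjb6 being left out. Only Gja1 lay past 1.5-fold, where 16% of 17054 genes did, 4.76% as higher and 11.2% as lower in replicate 1. Past 2-fold there was no member, beside 6.78% of genes. The log2 ratio of Gja1 was 0.60, a fold of 1.51 with an exact 95% counting interval of 1.49 to 1.54 that spans the threshold, and 15.6% of genes lay as far out or farther. With DESeq2 size factors in place of TMM the same log2 ratio was 0.58 and Gja1 fell just short, so the count of members past 1.5-fold was 0. The other log2 ratios were 0.53 for Gjd3, 0.39 for Gja3, 0.26 for Gjc1, -0.06 for Gja4 and -0.13 for Gja5. The exact intervals of Gja1, Gjd3, Gja3 and Gjc1 lay above 0, that of Gja5 lay below it (-0.18 to -0.09) and that of Gja4 included it (-0.17 to 0.05). The median of the 6 was 0.33, beside 0.02 over all genes compared.

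These directions are relative to the median gene. By deposited TPM the log2 ratio of Gjc1 was -0.05, so its direction turned, while the other 5 members kept theirs. Scaling by total gene counts lowered every log2 ratio by 0.17, which kept the 4 positive and 2 negative signs. Scaling by the spike-in RNA, which took 1.58% of reads in replicate 1 and 3.12% in replicate 2, raised every log2 ratio by 0.83. On that scale all 6 members were higher in replicate 1 and past 1.5-fold, from 0.70 for Gja5 to 1.43 for Gja1, as were 79.9% of genes past it in either direction, with a median of 0.85.

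Markers of the cell types that use these connexins were set beside them. Of 6 cardiomyocyte markers, 1 was past 1.5-fold, beside 16% of all genes compared. It was Tnni3 (cardiac troponin I), with a log2 ratio of 0.63 and named here after its value was seen. The median log2 ratio of the 6 was 0.38, and their summed level was 24706 TPM in replicate 1 and 21208 TPM in replicate 2. In comparisons chosen after the values were seen, reads of Gja1 relative to each of these markers differed between the libraries by factors from 0.976 (against Tnni3) to 1.42 (against Myh6, alpha-myosin heavy chain). Of 6 endothelial markers the median log2 ratio was 0.03, with sums of 243 and 274 TPM in replicates 1 and 2, and of 6 arterial endothelial markers it was 0.01, with sums of 57.2 and 72.0 TPM. Reads of Gja5 relative to the endothelial markers differed by factors from 0.774 to 0.940, and relative to the arterial ones from 0.757 to 1.19. For Gja4 the factors ran from 0.814 to 0.988 and from 0.796 to 1.25. Gja5, known also from the atria and the ventricular conduction system, was not set against cardiomyocyte or conduction system markers in this way. Of 6 conduction system markers, 1 was past 1.5-fold higher in replicate 1 (Shox2) and 2 were lower (Isl1 and Cntn2). Over all genes compared the shares were 4.76% higher and 11.2% lower. The sums of the 6 markers were 21.4 TPM in replicate 1 and 25.3 TPM in replicate 2. Hcn4, the pacemaker channel of the nodes, had 1.31 and 1.25 TPM, below Gjd3 in both libraries, as was Cntn2. Of the same markers, Tbx3, Cacna1g and Shox2 lay above Gjd3 in both libraries, and Isl1 did so in replicate 2 only. These comparisons with Gjd3 were chosen after the values were seen. In whole hearts, fewer cells of a type and less RNA per cell cannot be told apart. The part of cell composition in the connexin ratios was not tested.

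Markers of tissues outside the heart also differed between the libraries. Past 1.5-fold lower in replicate 1 were all 6 liver markers, all 6 thymus markers and 5 of 6 epithelial markers, beside 11.2% of genes. Their summed levels were 14.3 TPM in replicate 1 and 105 TPM in replicate 2 for liver, 11.9 and 117 TPM for thymus, and 62.8 and 150 TPM for epithelium. Of the 6 markers of lung epithelium 5 were lower, and likewise 5 of the 6 of neurons and glia, with sums of 164 and 408 TPM for lung and 11.1 and 53.5 TPM for neurons and glia in replicates 1 and 2. Of the 6 keratinocyte markers, 5 were compared and 3 were lower, while Dsg3, a desmosomal cadherin of skin, had 0 reads in replicate 1 and 6 in replicate 2. The keratinocyte sums were 173 TPM in replicate 1 and 189 TPM in replicate 2, of which Perp, a gene of desmosomes and stress responses, held 163 and 136 TPM. Perp, named after its values were seen, ran the other way from the 3 lower markers, with a log2 ratio of 0.50. Gjb2, of epithelia, had 9 reads in replicate 1 and 21 in replicate 2, a fold of 0.451 on the TMM scale whose exact interval of 0.182 to 1.03 includes no change. The part of these tissues in the level of Gjb2 was not tested.

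**Figure D3:**
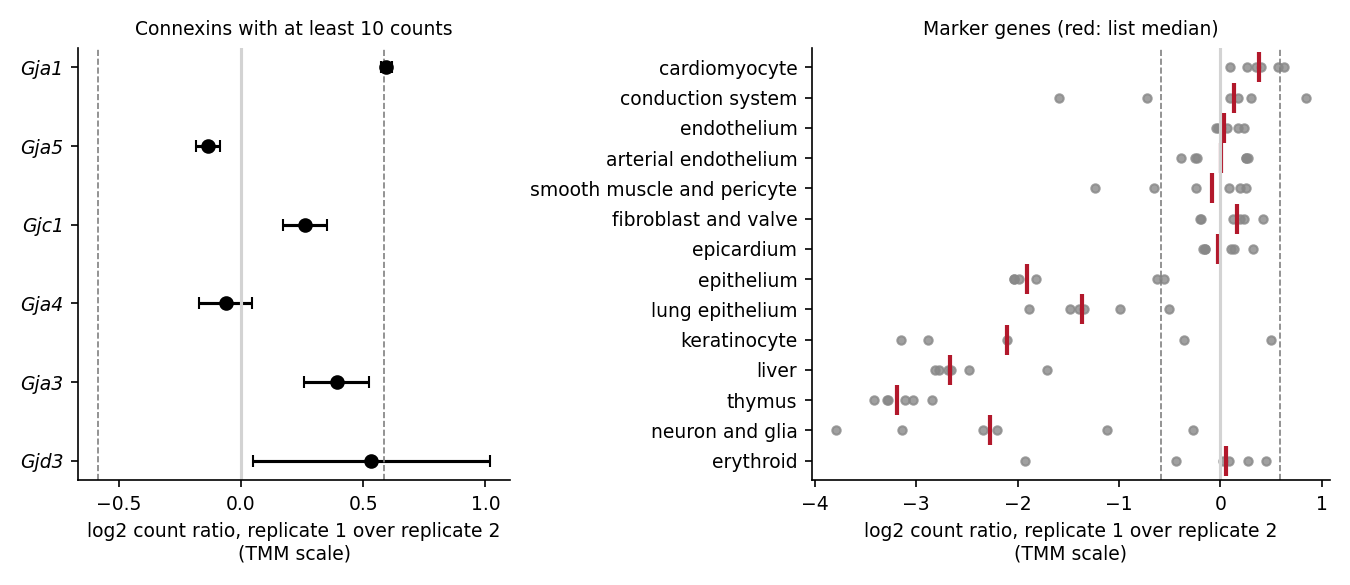
Log2 ratio of reads in replicate 1 over replicate 2 on the TMM scale, on the left for the 6 connexins with at least 10 reads in both libraries (bars: exact 95% counting interval) and on the right for marker genes of 14 cell types and tissues (grey points: genes, red: list median), with dashed lines at 1.5-fold. Gja1 lies at the upper line at 0.60 and Gja5 just below 0 at -0.13, while the liver and thymus medians lie at -2.67 and -3.19.

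The remaining 12 annotated connexins were below 1 TPM in both libraries. Together they held 1.39 TPM in replicate 1 and 2.91 TPM in replicate 2, or 0.265% and 0.621% of the TPM of all 20. The alpha class (Gja genes) held 91.7% of that total in replicate 1 and 90.2% in replicate 2, and the gamma class 7.47% and 8.65%. Delta connexins held 0.724% and 0.753%, and beta connexins 0.124% and 0.390%. Gjb5 had 15 reads in both libraries, 0.28 TPM in replicate 1 and 0.32 TPM in replicate 2, above the member Gjb6. The member Gjb2 had 0.12 TPM from 9 reads in replicate 1 and 0.31 TPM from 21 reads in replicate 2. In replicate 2 Gjb2 thus had more reads than Gjb5 and nearly the same TPM, so their order there cannot be read. Gjb1, the Cx32 gene of liver and Schwann cells, had 8 reads in replicate 1 and 31 in replicate 2, a fold of 0.271 on the TMM scale (exact interval 0.108 to 0.604). Gjd2, the Cx36 gene of neurons, had 5 and 34 reads, a fold of 0.155 (0.0472 to 0.397). The exact intervals of Gjb1 and Gjd2 excluded equality. Markers of liver and of neurons and glia were lower in replicate 1 as well, with the sums given above, and their part in these counts was not tested. Gjd4 had 6 and 9 reads in replicates 1 and 2, Gja6 had 2 and 8, and Gjc3 had 2 and 7.

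Reads within a gene were assigned to a single transcript for Gja1, Gja3, Gja4, Gjb2 and Gjd3, each of which has 1 transcript in the annotation of the files. In every member the whole coding sequence of the most read transcript lies in 1 exon, and the other exons are untranslated. The Gja1 transcript has 2 exons and 1146 coding bases, and the Gja5 transcript has 2 exons and 1074 coding bases. For Gja5, 98.5% of the TPM in replicate 1 and 98.0% in replicate 2 was in the transcript of 3109 bases at chr3:97032416-97053634. A second Gja5 transcript of 405 bases held 9.68 and 14.85 estimated reads in replicates 1 and 2. The length of Gja3 in the files, 1548 bases, is shorter than the 2766 bases of the same transcript in GENCODE M21, so its level per length rests on the shorter model.

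Gjc1 was split over 5 annotated transcripts. The coding transcript of 1903 bases held 77.3% of the TPM in replicate 1 and 73.5% in replicate 2, a mean of 75.4% ± 2.71. Another coding transcript, of 1890 bases, held 8.53% and 6.63%, and the coding transcript of 2314 bases 3.75% and 4.60%. A noncoding transcript of 247 bases held 8.22% and 13.4% of the TPM from only 15.22 and 22.95 estimated reads, because TPM divides by a short length. Over the 3 protein-coding transcripts alone, Gjc1 stood at 34.5 TPM in replicate 1 and 33.8 TPM in replicate 2. That was still above both libraries of Gja4, and the log2 ratio of Gjc1 to Gja4 was 0.27 in place of 0.47 over all transcripts.

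**Figure D4:**
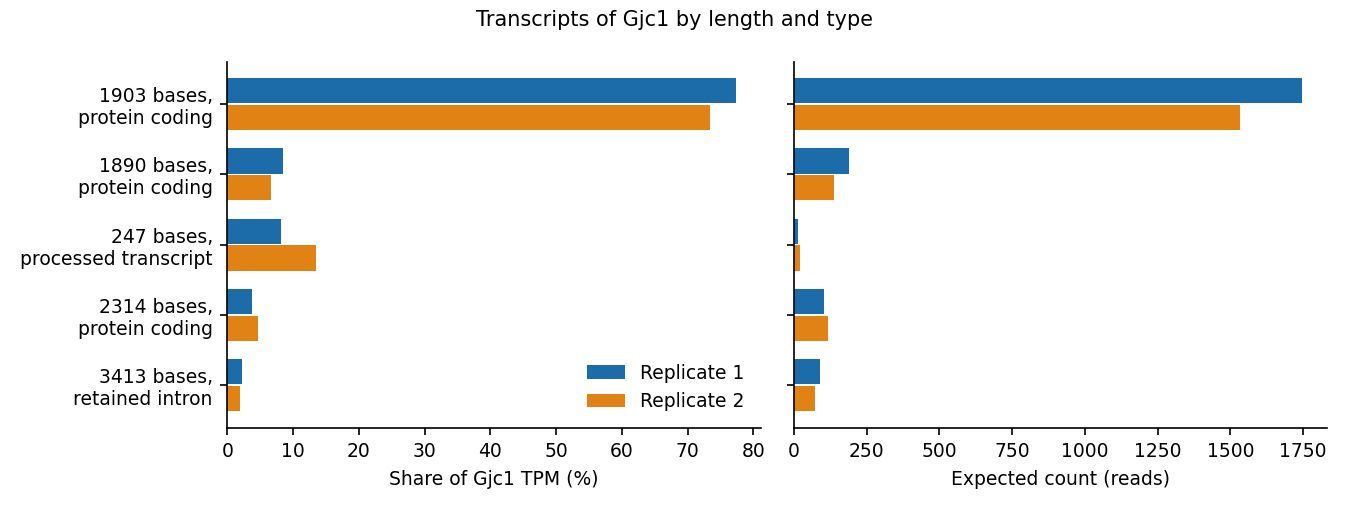
The 5 annotated transcripts of Gjc1 by length and type, as share of the gene's TPM (left, percent) and as estimated reads (right), replicate 1 in blue above replicate 2 in orange. The transcript of 1903 bases holds 77.3% and 73.5% of the TPM, while the one of 247 bases holds 8.22% and 13.4% from 15.22 and 22.95 reads.

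Several members lie near each other. Gja3, Gjb2 and Gjb6 lie in a row on chromosome 14, all on the minus strand, with 40500 bases between Gja3 and Gjb2 and the predicted gene Gm4491, at 0 reads in both libraries, between Gjb2 and Gjb6. In that row Gja3 had 22.4 TPM in replicate 1 and 20.1 TPM in replicate 2, while Gjb2 stayed under 1 TPM and Gjb6 at or below 1 read. Gjd3 and Gjc1 are both on chromosome 11, and Gjd3 lies between Rara, a retinoic acid receptor, at 21.6 and 25.4 TPM in replicates 1 and 2, and Top2a, a topoisomerase of dividing cells, at 124 and 131 TPM. The M21 gene model of Gja5 reaches upstream over Gpr89 on the opposite strand. Both Gja5 transcripts of the files start at base 97032416, outside that overlap.

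The sequences before the starts of Gja1 and Gja5 are shown because these genes lead the family and differed in opposite directions between the libraries on the TMM scale, though not with spike-in scaling. RefSeq promoter windows on GRCm38.p6 were found for 6 of the 8 members, namely Gja1, Gja3, Gja4, Gja5, Gjb2 and Gjb6. The 250 bases before the RefSeq start are printed 5′ to 3′ on the strand of the gene, with motif matches in capitals, Gja1 at chr10:56377050-56377299 and Gja5 at chr3:97032152-97032401, both on the plus strand:
Gja1: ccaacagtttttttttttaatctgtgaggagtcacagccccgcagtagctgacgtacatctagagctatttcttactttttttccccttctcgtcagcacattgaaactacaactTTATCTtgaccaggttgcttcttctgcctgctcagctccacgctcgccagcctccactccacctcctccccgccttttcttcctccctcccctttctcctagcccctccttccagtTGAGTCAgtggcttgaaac
Gja5: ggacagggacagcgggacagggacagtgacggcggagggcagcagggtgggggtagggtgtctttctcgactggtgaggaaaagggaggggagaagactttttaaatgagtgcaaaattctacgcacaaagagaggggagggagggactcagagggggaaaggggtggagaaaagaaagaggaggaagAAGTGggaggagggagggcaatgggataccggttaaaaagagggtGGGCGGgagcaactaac
Motifs were searched on both strands. The core promoter motifs were the TATA box, spelled TATAAA, and the GC box, spelled GGGCGG. For T-box factors the letters searched were AGGTGT, and for Nkx2-5 they were AAGTG. For GATA factors the search used AGATAA, and for AP-1 it used TGAGTCA. No match shared a base with a match to another motif in these 2 windows. The Gja1 window held an AP-1 match that begins 19 bases before the start, a motif present in 4.46% of 32851 windows of the same length, and a GATA match on the opposite strand that begins 135 bases before it, present in 9.99%. The Gja5 window held a GC box (32.7% of windows) and an Nkx2-5 match (40.7%). GC content was 50% in the Gja1 window and 56.4% in the Gja5 window, against a median of 52.4% over all windows. A match is a description of letters and not evidence of a bound site.

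Transcription factors known to act on connexin genes were all detected. At least 1 TPM in both libraries was reached by 16 of 16, beside 58.2% of protein-coding genes. Their median level was 10.3 TPM. Id2, an inhibitor of basic helix-loop-helix factors, was highest at 165 TPM in replicate 1 and 135 TPM in replicate 2. Of the factors whose motifs were searched, which were named after their values were seen, Nkx2-5, the cardiac homeodomain factor, had 122 and 107 TPM, Gata4 90.6 and 91.3 TPM, Jun, an AP-1 subunit, 58.6 and 62.1 TPM and Tbx5 20.7 and 23.9 TPM. Other factors of the same motifs were lower. Fos, the other AP-1 subunit listed, had 4.51 TPM in replicate 1 and 4.89 TPM in replicate 2, and Sp1, which binds GC boxes, had 4.73 and 5.26 TPM. The T-box genes Tbx3 and Tbx18 had 7.27 and 7.50 TPM in replicate 1 and 8.23 and 7.06 TPM in replicate 2. Past 1.5-fold between the libraries were 3 of the 16, beside 16% of all 17054 genes compared. Hopx, a homeodomain protein without DNA binding, and Shox2, a factor of the sinus node, were higher in replicate 1, with log2 ratios of 0.82 and 0.85. Tbx2, a repressor of chamber genes and the lowest of the list, had 2.15 TPM in replicate 1 and 4.33 TPM in replicate 2, a log2 ratio of -0.78.

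Genes whose products anchor or carry Cx43 were also all detected, 20 of 20 beside 58.2% of protein-coding genes, with a median of 53.3 TPM. Cav1, a caveolin abundant in endothelium, was highest at 271 TPM in replicate 1 and 253 TPM in replicate 2. Tjp1, named after its values were seen, encodes the ZO-1 scaffold that binds the tail of Cx43 and had 16.5 and 20.1 TPM. None of the 20 was past 1.5-fold between the libraries, beside 16% of all genes compared, and their median log2 ratio was 0.07. Of 23 kinases, phosphatases and turnover genes linked to connexins, 22 were detected, from Ppp1ca, a phosphatase catalytic subunit, at 545 and 585 TPM in replicates 1 and 2 to Trim21, a ubiquitin ligase, at 0.17 and 0.14 TPM. None of the 23 was past 1.5-fold, beside the same 16% of genes, with a median log2 ratio of 0.13.

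Pannexins, which form large-pore channels but are unrelated to connexins in sequence, were set beside them. Panx1 had 10.6 TPM in replicate 1 and 13.0 TPM in replicate 2, below the 5 leading connexins and above Gjd3 in both libraries. Panx2 had 1.24 and 1.38 TPM, and Panx3 had 5 and 3 reads. The 2 pannexins compared between the libraries, Panx1 and Panx2, had log2 ratios of -0.38 and -0.33, neither past 1.5-fold.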

How the data were processed

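Total RNA-seq of 2 pools of embryonic hearts was used, 1 library a pool. The authors' deposited tables give, per gene and per transcript, estimated counts (expected counts, with ambiguous reads shared out), TPM and a posterior mean TPM, and per transcript its percent of the gene's TPM. Per the accompanying notes, reads were mapped to mm10 with GENCODE M4; names and versions of the aligner and quantifier, and the use of strand, were not given in the sources used here. Bounds of TPM, as deposited, have no stated level and enclose the posterior mean TPM, so they were not used as errors. Gene symbols came from GENCODE M21 (same genome build), which matched 42462 of 43346 Ensembl genes.

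Expected counts were rounded. Libraries were compared as replicate 1 over replicate 2, with TMM factors from edgeR 4.0.16 (R 4.3.3), over the 17054 genes with 10 or more counts in each library, with exact Clopper-Pearson counting intervals (scipy 1.17.1, Python 3.11.15). No test was run: there is 1 group. Log2 ratios between genes used TPM + 0.1. One read per kilobase equalled 0.0308 TPM in replicate 1 and 0.0345 TPM in replicate 2. The scaling step was tested on simulated Poisson counts in which as many genes were raised as lowered. An unequal split, such as the 4.76% higher and 11.2% lower in replicate 1 here, was not covered. Alternatives were DESeq2 1.42.0 size factors, totals, spike-ins, other filters, pseudocounts and units, and single libraries.

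Members and gene lists were chosen with earlier results of these data known. Named were all 8 members, every other connexin with at least 3 counts in a library, and in each other gene list, marker lists aside, the highest, the lowest and every gene past 1.5-fold; exceptions are marked where they appear, and some genes under this rule are not reported here. Sequences came from GENCODE M21 transcripts and from RefSeq promoter windows (GRCm38.p6).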

Additional observations from a re-analysis of the deposited data

How the results depend on the processing

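The share of Gja1 in the 8 connexins was 72.7% by expected counts, without length normalization, against 66.0% by TPM, and ranged from 61.6% to 70.4% over single libraries. The 1 connexin past 1.5-fold became 0 with DESeq2 size factors, total gene counts, TPM as deposited or a 2-fold limit, 2 without the count filter (Gjb2 with 9 and 21 reads being added) and 6 with spike-in scaling; the cause was not tested. Counts of connexins at 1 TPM stayed at 6 with every alternative run, and over single libraries at 6. The order held in 7 of 7 neighbouring pairs with every alternative but the posterior mean TPM, where 6 were apart. On that estimate the log2 ratio of Gjb2 to Gjb6 turned to -0.62 from 1.46. It put Gjb6 at 0.35 TPM in replicate 1 and 0.41 TPM in replicate 2, and Gjb2 at 0.13 and 0.32 TPM. The cause was not tested. For the order, the single-library values were fixed in advance, since it already required both libraries of the higher gene to lie above both of the lower. TPM over Ensembl genes only could hardly change the order either. The main Gjc1 transcript held 73.5% to 77.3% over single libraries. Of 94 ratios between 13 pairs under alternatives, 74 moved by less than the SD between libraries, 19 moved by more and 1 reversed. The single-library values among the 74 were fixed in advance, since either of 2 values lies within 1 SD of their mean. TPM over Ensembl genes only multiplies both genes of a pair by the same factor, so it could hardly move a ratio. The count of 74 is therefore no measure of stability. Taking Gjc1 over its protein-coding transcripts was chosen after seeing the data. No paired analysis was possible because there is 1 group. Leaving out either library leaves 1, so the comparison between libraries has no such value. With 1 pool a library, depth limits Gjb2, Gjb6 and most of the 12 other connexins, whose counts are under 50.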
